A study of Drosophila melanogaster with 17 samples.

Results

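Adult brains that lack moody (group C17, labelled Moody null) were compared with brains of the newer Canton S wild type (group WT_new), over every probe set of the authors' normalized array table. The members were chosen by their labels: 3 C17 and 3 WT_new arrays, so 6 of the 17 arrays of the series. Each array held RNA of 4 pooled whole brains from flies of both sexes. C17 is 1 mutant line, and the study describes its genetic background as different from that of the wild type. The other arrays used here are an older Canton S group (WT_old, 5 arrays), which the study added because WT_new was not processed on the day of the mutants, and a UAS-Mdr65-RNAi line (UAS_control, 3 arrays), added because its background is closer to the mutants' own. No Gal4 driver is labelled for the RNAi transgene, and PMdr65 (Mdr65 null, 3 arrays) entered only the shared estimate of the spread. The flies of all groups were kept at a cool or at room temperature, and which array came from which was not given. Genotype, genetic background and processing day therefore all separate C17 from WT_new and cannot be told apart within these 6 arrays.

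The moody gene encodes a pair of G protein-coupled receptor isoforms of the surface glia, the thin epithelium that wraps the insect brain. In its outer perineurial and inner subperineurial layers the blood-brain barrier is made: subperineurial cells seal their borders with septate junctions, built of claudins, Ly6 proteins and adhesion molecules, and carry efflux pumps such as Mdr65. Moody acts through heterotrimeric G proteins, with the regulators loco and pins, on the cortical actin and junctions of these cells.

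The arrays measured brain tissue. The neuronal RNA-binding protein gene elav read 11.79, 11.79 and 11.82 in C17 against 11.66, 11.50 and 11.58 in WT_new, on the log2 scale of robust multi-array average (RMA) signals used for every value below. The 3 C17 arrays were closely alike (correlations 0.9965 to 0.9967 over all probe sets), while those of WT_new ranged from 0.9799 to 0.9945, and a C17 and a WT_new array correlated at 0.9558 to 0.9765. WT_new array 3 stood apart by its photoreceptor transcripts: the summed linear signal of 25 eye and phototransduction genes was 19501 to 19686 on the C17 arrays, against 18670, 19186 and 33382 on WT_new arrays 1, 2 and 3. It was 24041 to 30605 on UAS_control arrays and 18697 to 19079 on WT_old arrays. Results that rest on WT_new array 3 are given with and without it. In RNA from whole brains, fewer cells of a type and less RNA per cell cannot be told apart.

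Expression of moody was lost in C17. It read 2.30, 2.10 and 2.12 in C17 brains against 9.65, 9.95 and 9.72 in WT_new brains, so every C17 array was near the lower end of the array's range and every WT_new array was well above it. The difference was -7.60 ± 0.10 (log2, SE, limma adjusted p = 1.13e-16), a 194-fold lower signal, which is approximate because the C17 signal is so dim. An exact two-sided permutation test of the 6 arrays gave p = 0.1, the smallest that 3 against 3 arrays can give. WT_old averaged 10.01 ± 0.15 (SD, n = 5) and UAS_control 10.03 ± 0.08 (SD, n = 3), so the loss was as large against either.

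The genes on either side of moody differed strongly as well, in opposite directions. Sik2, which encodes a salt-inducible kinase, read 4.94, 4.30 and 4.46 in C17 against 8.27, 8.10 and 8.25 in WT_new. CG4325, its other direct neighbour, read 10.19, 10.24 and 10.19 in C17 against 6.84, 7.05 and 7.24 in WT_new. All C17 arrays lay below all WT_new arrays for Sik2 and above them for CG4325: Sik2 was 12.5-fold lower (log2 -3.64 ± 0.12 SE, adjusted p = 9.43e-12) and CG4325 was 8.96-fold higher (log2 3.16 ± 0.11, adjusted p = 2.48e-11). Both were of like size against WT_old (-4.04 and 2.84) and UAS_control (-3.59 and 3.53). Of the 20 measured genes nearest to moody, 7 were higher and 2 lower in C17, which is close to the 42.0% of all genes that were called, so beyond the direct neighbours the count does not set this region apart. CG4194, 5 genes away on the Sik2 side, was 2.04-fold higher (adjusted p = 4.37e-05), CG14054, 3 genes away, 1.61-fold higher (adjusted p = 0.00021), and Rtca, the RNA 3'-terminal phosphate cyclase gene 6 genes away, 1.46-fold higher (adjusted p = 0.00247). CG4194, CG14054 and Rtca were also higher than in WT_old (0.84, 0.57 and 0.66) and UAS_control (1.19, 1.1 and 0.53). Unc-76, called higher against WT_new (0.24), differed from WT_old by -0.16. How many neighbours passed against all 3 control groups was not counted. The nuclear receptor gene usp, 2 genes away on the CG4325 side, had a difference of 0.26 (adjusted p = 0.0225) that missed the threshold without WT_new array 3 (adjusted p = 0.0568) and without any 1 of 3 other arrays (adjusted p = 0.0576 to 0.0632). The labels do not give the extent of the C17 lesion.

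A large part of the measured transcriptome differed between C17 and WT_new. At a Benjamini-Hochberg adjusted limma p under 0.05, 3349 probe sets were higher in C17 (25.2%) and 2100 lower (15.8%) of 13290 tested, 41.0% in all. Counted by gene, 2153 were higher (24.1%) and 1598 lower (17.9%) of 8938, with the C17 and WT_new arrays not overlapping for 2115 and 1542 of these. Over all genes the arrays did not overlap for 56.9%, 31.5% with C17 higher and 25.5% with C17 lower. Without WT_new array 3, 1786 genes were higher (20.0%) and 1591 lower (17.8%), 37.8% in all. By gene, 42.0% were called with all arrays. Most changes were small: the median change was 0.45 among higher and -0.41 among lower probe sets, and 1953 and 1388 of them were under 0.5 on the log2 scale. Changes of at least 2-fold were found for 260 higher and 188 lower probe sets, and of at least 8-fold for 11 and 17. Separate fly cultures behind the replicates are not recorded in the labels, and the p-values then reflect only how far these arrays differ, which may be technical.

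**Figure D1:**
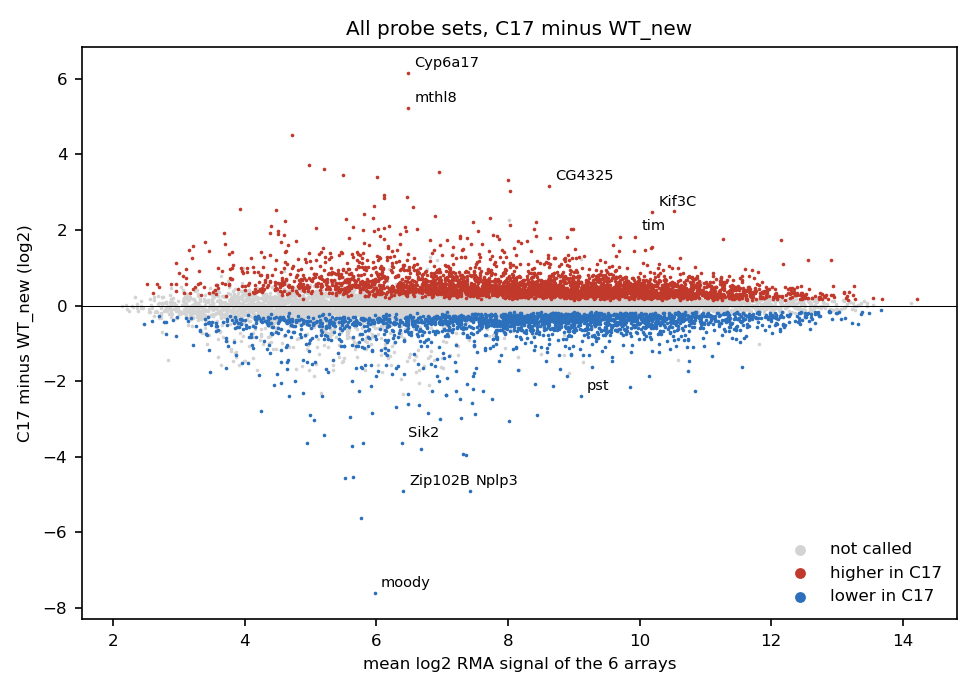
Difference between C17 and WT_new (vertical axis, log2, C17 minus WT_new) against the mean log2 RMA signal of the 6 arrays (horizontal axis) for all 13290 probe sets. Red points were higher and blue points lower in C17 at an adjusted p under 0.05, grey points were not called, and moody lies lowest at -7.60.

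The same counts against the other control groups were lower for WT_old and alike for UAS_control. C17 minus WT_old called 1758 genes (19.7%; 11.6% higher and 8.03% lower), and C17 minus UAS_control 3889 (43.5%; 23.2% higher and 20.4% lower). WT_old minus WT_new called 4025 (45.0%; 24.1% higher and 21.0% lower), and UAS_control minus WT_new 1324 (14.8%; 8.41% higher and 6.40% lower). These contrasts share the C17, WT_new, WT_old or UAS_control arrays with each other, so below their values are only set side by side. In C17 minus WT_new and in the same direction against both other control groups, 391 genes were higher (4.37%) and 203 lower (2.27%), 6.65% of all genes. Among genes that changed by at least 2-fold against WT_new, this held for 81 of 148 higher and 48 of 152 lower genes. Counted by probe set, 858 met this condition (6.46%), and 553 without C17 array 2.

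The largest increases in C17 included a cytochrome P450 and a methuselah-like receptor that were near the floor of the arrays in both Canton S groups. Cyp6a17, a P450 gene, read 9.53, 9.58 and 9.56 in C17 against 3.59, 3.42 and 3.21 in WT_new. It was 71.0-fold higher in C17 (log2 6.15 ± 0.13 SE, adjusted p = 1.04e-13). The UAS_control group, at 9.25 ± 0.02 (SD, n = 3), was nearly as high as C17 (difference 0.30, adjusted p = 0.0767). The G protein-coupled receptor gene mthl8 read 8.96, 9.13 and 9.18 in C17 against 3.81, 4.03 and 3.77 in WT_new. This was a difference of 5.22 (adjusted p = 5.85e-12), and its other probe set differed by 4.51. In UAS_control mthl8 averaged 7.81 ± 0.42 (SD, n = 3), and C17 exceeded that group by 1.28 (adjusted p = 3.41e-05). Root, which encodes the ciliary rootlet protein rootletin, and Rrp1, a DNA repair endonuclease gene, were 11.6-fold and 10.5-fold higher than in WT_new. Against UAS_control these differed by 0.31 (adjusted p = 0.371) and -0.22 (adjusted p = 0.482). Cyp6a17, Root and Rrp1 were thus high in C17 and UAS_control and low in both Canton S groups.

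Other large increases were present against every control group. CG34002 was 13.1-fold and CG18343 12.2-fold higher than in WT_new, and both also exceeded UAS_control, by 2.86 and 2.98. Septin5, a gene of the filament-forming septin GTPases, read 7.73, 7.22 and 7.76 in C17 against 4.76, 4.45 and 4.77 in WT_new (log2 difference 2.91, adjusted p = 2.72e-09), and exceeded UAS_control by 1.90. The leak potassium channel gene sand was less even: it read 8.37, 9.33 and 6.02 in C17 against 5.23, 5.07 and 4.79 in WT_new. Each C17 array lay above each WT_new array, but the C17 arrays spanned more than 3 log2 units, and the difference of 2.87 (adjusted p = 0.000573) became 2.16 without C17 array 2 and 3.82 without C17 array 3. CG13659 and CG7054 were 6.18-fold and 6.11-fold higher.

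Several of the largest decreases were present against both Canton S groups. Zip102B, a zinc transporter gene, read 3.94, 3.85 and 4.05 in C17 against 8.51, 9.01 and 9.05 in WT_new (log2 -4.91 ± 0.15 SE, adjusted p = 5.17e-12). UAS_control was as low as C17, at 3.95 ± 0.23 (SD, n = 3). The organic anion transporter gene Oatp33Ea read 3.47, 3.57 and 3.45 in C17 against 6.92, 7.05 and 6.78 in WT_new, with no overlap. It was 10.7-fold lower than in WT_new (adjusted p = 5.17e-12) and lower by 3.19 and 3.24 against WT_old and UAS_control. The mitochondrial P450 gene Cyp12a4 was 8.28-fold lower (adjusted p = 1.19e-10) and CG6908 8.02-fold lower (adjusted p = 1.03e-05), and both were also lower than in WT_old and UAS_control.

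The remaining large decreases were uneven across the WT_new arrays, and were found against UAS_control but not against WT_old, except for CG14645 and CG34324, which passed against neither. Nplp3, which encodes a neuropeptide-like precursor, read 4.86, 4.62 and 5.42 in C17 against 8.50, 8.67 and 12.43 in WT_new. Without WT_new array 3 its difference of -4.90 became -3.62, and it was -0.01 against WT_old. CG4000 (-3.80, and -2.46 without WT_new array 3), CG7214 (-3.62, and -2.59) and Jhbp13 (-2.96, and -1.67), named as a juvenile hormone-binding protein, had the same arrangement, with their highest value on WT_new array 3. With WT_new array 1 or 2 left out instead, the differences of these 4 genes lay between -5.58 and -3.55. For these and the corneal lens gene retinin, the difference from WT_old was between -0.13 and 0.16. Against UAS_control all 5 were called lower, at -5.95 for Nplp3, -6.13 for CG4000, -6.45 for CG7214, -4.86 for Jhbp13 and -4.90 for retinin. CG14645 differed in another way: it read 3.67, 3.65 and 3.98 in C17 against 10.49, 6.99 and 4.96 in WT_new, so WT_new array 1 was highest, and its difference of -3.71 became -2.21 without that array and -4.97 without array 3. CG34324 was likewise highest on WT_new array 1, at 10.75 against 7.02 and 5.14 on arrays 2 and 3, and 4.83 to 5.01 in C17. Its difference was -2.69 (adjusted p = 0.0216), which became -1.14 without WT_new array 1 and -3.94 without array 3, and missed the threshold without C17 array 2 (adjusted p = 0.0506) or 3 (adjusted p = 0.0556).

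**Figure D2:**
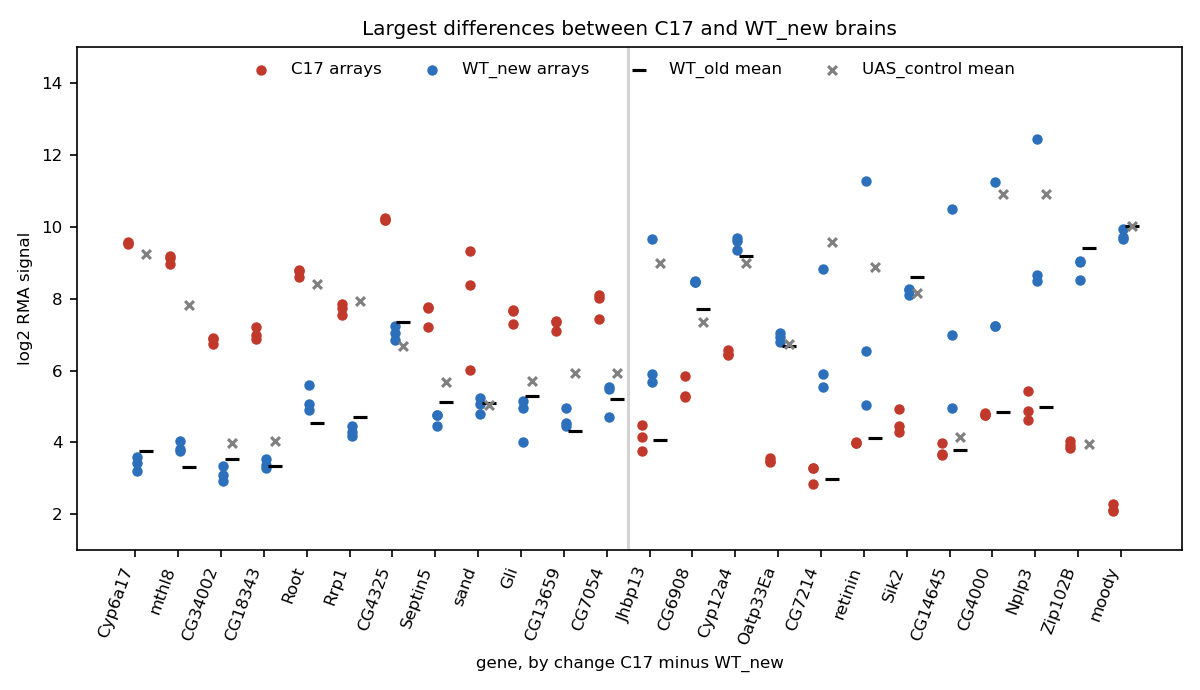
Log2 RMA signal (vertical axis) of the 12 genes with the largest increase and the 12 with the largest decrease in C17 (horizontal axis), each with its 3 C17 arrays (red) and its 3 WT_new arrays (blue). Short lines are the WT_old and crosses the UAS_control means. Cyp6a17, Root and Rrp1 have UAS_control at the C17 level, and Nplp3, CG4000, CG7214, retinin and Jhbp13 have 1 WT_new array, array 3, far above the others.

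Among genes with a mean signal of 9 or more, Kif3C, which encodes a kinesin motor, changed most. It read 11.46, 11.40 and 11.41 in C17 against 8.95, 8.99 and 8.94 in WT_new (5.51-fold higher, adjusted p = 1.57e-12). WT_old and UAS_control lay between these, and C17 exceeded them by 1.23 and 1.42. The thermal TRP channel gene pyx was 2.71-fold, the homeobox gene NK7.1 2.47-fold, CG13877 2.69-fold and the P450 gene Cyp6a13 2.81-fold higher, and each of these was also called higher against WT_old and UAS_control. CG8745 and the immune-regulated catalase gene Irc were 3.50-fold and 2.88-fold higher than in WT_new. Against UAS_control they differed by -0.62 (adjusted p = 0.00325) and -0.02 (adjusted p = 0.933), so CG8745 was lower in C17 than in that group.

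The bright gene with the largest decrease was pst (pastrel), which encodes an antiviral host factor. It read 8.05, 7.87 and 7.81 in C17 against 10.08, 10.18 and 10.63 in WT_new (5.25-fold lower, adjusted p = 1.05e-06), and was lower by 1.51 against WT_old and 2.55 against UAS_control. Ugt35B1, a UDP-glycosyltransferase gene, was 2.78-fold lower and CG4364 2.32-fold lower. The genes for the nucleolar GTPase Non1 and the acylphosphatase Acyp2 were 2.34-fold and 2.47-fold lower, and all 4 were also lower against both other control groups. GILT3, a lysosomal thiol reductase gene, read 8.30, 8.77 and 8.67 in C17 against 10.05, 9.99 and 9.62 in WT_new (-1.31, adjusted p = 4.24e-05). It was 2.53 higher in C17 than in UAS_control, where it averaged 6.05 ± 0.33 (SD, n = 3).

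More than the background share of surface glia genes was higher in C17 than in WT_new and WT_old, with a share near the background against UAS_control. Of 22 measured surface glia genes 12 were higher (54.5%, where 24.1% of all genes were higher) and 3 lower, moody included, with a median of 0.47 where the median over all genes was 0.02. Without WT_new array 3, 11 were higher and 3 lower. Their summed linear signal was 29941 to 31579 on C17 arrays, 25170 to 27820 on WT_new arrays, 23036 to 26001 on WT_old arrays and 28540 to 30544 on UAS_control arrays. Mdr65, the ABC efflux pump of this layer, read 10.95, 11.23 and 11.10 in C17 against 10.45, 10.31 and 9.94 in WT_new. Every C17 array was above every WT_new array, a 1.82-fold increase (log2 0.86 ± 0.18 SE, adjusted p = 0.00165); against UAS_control the difference was 0.31 (adjusted p = 0.178). Gli (gliotactin), which marks the points where 3 cells meet, read 7.29, 7.69 and 7.65 in C17 against 4.00, 5.16 and 4.95 in WT_new. It was 7.17-fold higher (adjusted p = 4.46e-05) and also higher against WT_old (2.24) and UAS_control (1.82). The phosphatase gene PRL-1 was 1.67-fold and ltl 1.88-fold higher. The glucose transporter gene Glut1 was 1.38-fold higher by its brightest probe set, while its 2 other probe sets differed by 0.09 and 0.08. The list had 15 higher and 1 lower member against WT_old (median 0.62, with 11.6% of all genes higher), and 6 higher and 4 lower against UAS_control (median 0.05, with 23.2% of all genes higher).

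The share of septate junction genes called higher than in WT_new differed between protein classes, and this difference between classes was not tested. Of the 11 measured claudins, Ly6 proteins and their partners, 8 were higher (72.7%) and 0 lower, with a median of 0.49. Among all genes 24.1% were higher and 17.9% lower. At an unadjusted limma p under 0.05, 0 of the 11 were lower as well. The Ly6 protein gene cold read 9.59, 9.57 and 9.63 in C17 against 8.46, 8.28 and 8.30 in WT_new (2.38-fold higher, adjusted p = 8.5e-08). The claudin genes sinu and pck were 1.61-fold and 1.47-fold, the transmembrane protein genes pasi2 and pasi1 1.70-fold and 1.55-fold, and the Ly6 protein gene crim 1.40-fold higher. Against WT_old 4 of the 11 were higher (median 0.10), where 11.6% of all genes were higher. Of the genes just named, cold (0.66) and sinu (0.22) passed there, while pasi2 (0.08), pasi1 (-0.12), pck (0.06) and crim (0.10) did not. Against UAS_control 7 were higher and 1 lower (median 0.42), where 23.2% of all genes were higher and 20.4% lower.

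Of 18 measured adhesion and scaffold components of septate junctions, 7 were higher (38.9%) and 2 lower (11.1%), with a median of 0.18. The other members were not called. Among all genes 24.1% were higher and 17.9% lower. Against WT_old 4 were higher and 2 lower (median 0.11), where 11.6% and 8.03% of all genes were. Against UAS_control the counts were also 4 and 2, where 23.2% and 20.4% of all genes were called. The FERM protein gene cora and the immunoglobulin adhesion gene Cont were both 1.54-fold higher, and Nrx-IV (neurexin IV) 1.25-fold higher. Ssk (snakeskin), which encodes a membrane protein of the smooth septate junctions of the gut, fell: it read 7.69, 7.72 and 7.98 in C17 against 9.04, 8.90 and 9.02 in WT_new (-1.19, adjusted p = 7.97e-05), and was also lower against WT_old (-0.68) and UAS_control (-1.53). Of the 6 measured genes of moody signalling, 2 were higher and 2 lower, moody among them. The G protein gene Galphao (0.25, adjusted p = 0.000913) and pins (0.50, adjusted p = 0.00144) rose and the kinase gene Pkc98E fell by 0.27 (adjusted p = 0.00203). Neither Galphao (0.06, adjusted p = 0.357) nor pins (0.20, adjusted p = 0.142) passed against WT_old. Galphai differed by 0.22 (adjusted p = 0.124) and loco by 0.17 (adjusted p = 0.221).

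Drug-handling families held single genes with large differences in both directions, where 24.1% of all genes were higher and 17.9% lower. Of 58 measured P450 genes 13 were higher (22.4%) and 15 lower (25.9%), and of 25 glutathione S-transferase genes 9 (36.0%) and 5 (20.0%). Of 20 UDP-glycosyltransferase genes 6 were higher and 5 lower, and of 34 ABC transporter genes 11 (32.4%) and 3 (8.82%). Cyp12a5 was 4.12-fold higher in C17 (adjusted p = 7.64e-07), opposite to its family member Cyp12a4. GstE1 read 9.52, 9.61 and 9.63 in C17 against 8.34, 8.19 and 8.19 in WT_new (2.54-fold higher), while GstD9 was 2.01-fold lower. Ugt302K1 was 5.27-fold lower, Ugt35C1 2.10-fold higher and Ugt49C1 5.01-fold higher, although Ugt49C1 did not differ from UAS_control (0.03, adjusted p = 0.90). Oatp74D, the ecdysone importer, was 2.11-fold higher and exceeded WT_old by 1.63 and UAS_control by 0.68.

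Genes of mitochondrial energy production and of both kinds of ribosome were lower in C17 than in WT_new. Of 65 measured nuclear genes of oxidative phosphorylation 49 were lower (75.4%, where 17.9% of all genes were lower) and 4 higher, with a median of -0.35. Of 71 mitochondrial ribosomal protein genes 39 were lower and 1 higher (median -0.27), and of 37 cytosolic ribosomal protein genes 20 were lower and 0 higher (median -0.17), also 0 higher at an unadjusted limma p under 0.05. The complex I subunit gene ND-B14.7 read 10.29, 10.19 and 10.30 in C17 against 11.42, 11.40 and 11.26 in WT_new, without overlap (2.15-fold lower, adjusted p = 5.17e-08). ND-PDSW, also of complex I, was 2.13-fold and COX8 of complex IV 1.55-fold lower. UQCR-11, of complex III, moved the other way, at 9.76, 9.68 and 9.72 in C17 against 8.53, 8.23 and 8.57 in WT_new (2.42-fold higher, adjusted p = 7.03e-07). The mitochondrial ribosome genes mRpS14, mRpL49 and mRpS28 were 1.77-fold, 1.74-fold and 1.61-fold lower. Of the cytosolic ribosome genes, RpL27 was 1.94-fold and RpL10Ab 1.52-fold lower.

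The shifts of the mitochondrial lists were not found against the older wild type, and that of the cytosolic ribosome was smaller there. In C17 minus WT_old 11 oxidative phosphorylation genes were higher and 4 lower (median 0.07). The mitochondrial ribosome list had 10 higher and 2 lower (median 0.08), where 11.6% of all genes were higher. Of the 37 cytosolic ribosome genes 0 were higher and 5 lower against WT_old, where 8.03% of all genes were lower, and 3 were lower against all 3 control groups. In WT_old minus WT_new 54 and 56 members of the mitochondrial lists were lower, with medians of -0.43 and -0.40. Against UAS_control 51 and 29 were lower in C17 (medians -0.36 and -0.18), and in UAS_control minus WT_new 3 and 10 were lower. So C17 and WT_old lay below WT_new and UAS_control for these mitochondrial lists. For oxidative phosphorylation C17 lay slightly above WT_old, with summed linear signals of 160292 to 165094 against 142191 to 159793. Single members held in all 3 contrasts: ND-B14.7 (-0.34 against WT_old), ND-PDSW (-0.54), RpL27 (-0.83), mRpS28 (-0.50) and, in the other direction, UQCR-11 (0.98). COX8 was higher in C17 than in WT_old by 0.21 (adjusted p = 0.0448), and mRpS14 (-0.01) and RpL10Ab (-0.03) did not pass there. Without WT_new array 3 the lower counts were 49, 42 and 16 for the 3 lists. The part of the processing day in these shifts was not tested.

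**Figure D3:**
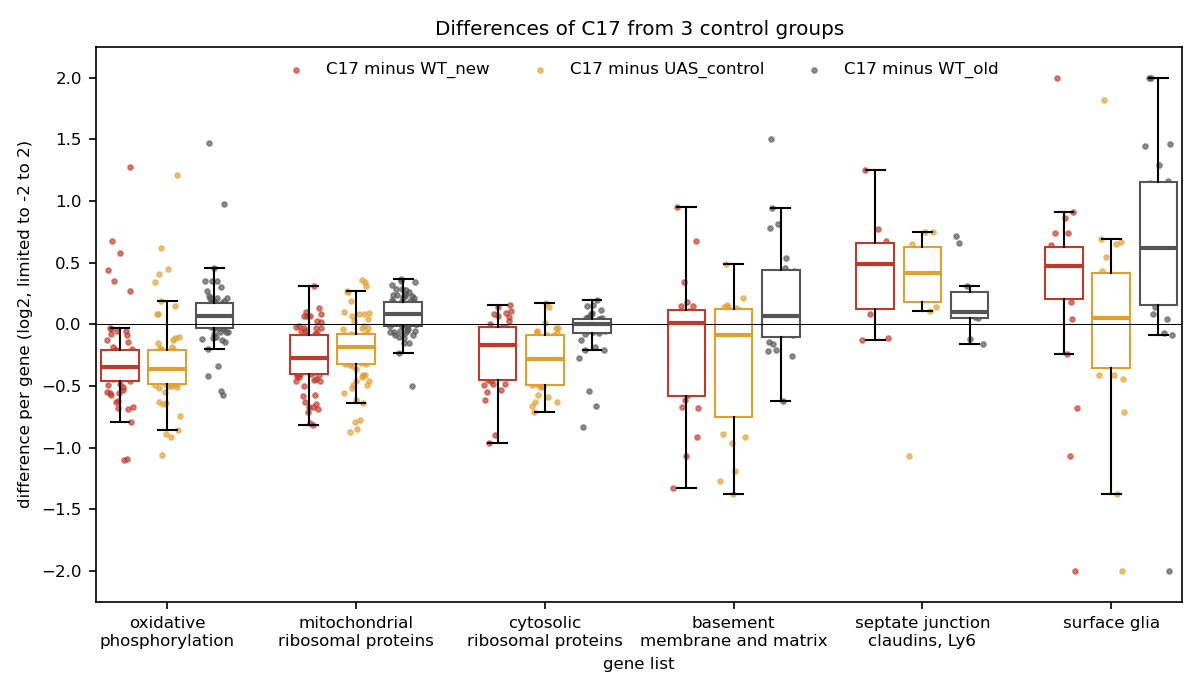
Difference per gene (vertical axis, log2, with values beyond -2 or 2 drawn at the edge) between C17 and each of the 3 control groups for 6 gene lists (horizontal axis). Points are genes, boxes span the quartiles with the median as a line, and whiskers reach the last gene within 1.5 box lengths. The medians of the oxidative phosphorylation list are -0.35 against WT_new, -0.36 against UAS_control and 0.07 against WT_old.

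Several basement membrane genes followed the same order of groups. Of 24 measured genes 6 were lower (25%) and 3 higher (12.5%) in C17 than in WT_new (median 0.01), and 15 were not called. Among all genes 17.9% were lower and 24.1% higher. Against WT_old 0 were lower and 4 higher (2 lower at an unadjusted limma p under 0.05), where 8.03% and 11.6% of all genes were. Col4a1, which encodes a collagen IV chain, read 10.43, 10.45 and 10.43 in C17 against 11.80, 11.86 and 11.62 in WT_new (2.51-fold lower, adjusted p = 3.04e-05), and -0.22 against WT_old (adjusted p = 0.361). Its partner chain vkg (-0.68), the collagen-binding SPARC (-1.07) and the perlecan gene trol (-0.91) fell too, and against WT_old they differed by -0.09, -0.07 and -0.26, none past the threshold. The 6 probe sets of trol differed by between -1.24 and 0.07. The laminin gene LanB1 was 1.93-fold higher and exceeded WT_old by 1.50.

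Of 24 pan-neuronal and transmitter genes 9 were higher in C17 than in WT_new (37.5%, where 24.1% of all genes were higher) and 2 lower, with a median of 0.14. Of 21 synaptic adhesion genes 12 were higher (57.1%) and 2 lower, with a median of 0.20. Against WT_old, where 11.6% of all genes were higher, the pan-neuronal list had 5 higher and 1 lower (median 0.05) and the synaptic adhesion list 5 higher and 2 lower (median 0.01). Nlg1, a neuroligin gene, read 6.02, 5.75 and 5.39 in C17 against 3.40, 3.51 and 3.57 in WT_new (4.68-fold higher, adjusted p = 3.06e-08), with similar differences of 2.30 and 2.45 from WT_old and UAS_control. Nlg3 was 1.50-fold higher by its brightest probe set, and its other 3 probe sets differed by 0.22, 0.36 and 0.07. The receptor phosphatase gene Lar was 1.73-fold, the synapsin gene Syn 1.62-fold and the presynaptic calcium channel gene cac 1.40-fold higher; cac did not differ from WT_old (-0.04, adjusted p = 0.726).

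Circadian genes stood out by tim (timeless), a core clock component whose RNA cycles over the day. It read 10.88, 10.86 and 10.78 in C17 against 8.84, 8.91 and 9.32 in WT_new (3.53-fold higher, adjusted p = 9.79e-09), and its other probe set differed by 1.84. It exceeded WT_old by 1.90 and UAS_control by 1.03. The clock neuropeptide gene Pdf read 11.38, 11.23 and 11.12 in C17 against 9.96, 10.18 and 9.84 in WT_new (2.38-fold higher, adjusted p = 6.07e-06) and was higher against all 3 control groups. The clock repressor gene cwo was 1.94-fold higher and the blue-light receptor gene cry 1.33-fold lower. Of 15 clock genes 7 were higher (46.7%) and 2 lower (13.3%), with a median of 0.26, where 24.1% and 17.9% of all genes were. Against WT_old 3 were higher and 3 lower (median 0.05), where 11.6% and 8.03% of all genes were. Against UAS_control 8 were higher and 1 lower, where 23.2% and 20.4% of all genes were. The labels give no time of day for the dissections.

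Of 32 measured neuropeptide genes 11 were higher (34.4%) and 5 lower (15.6%), and against WT_old 8 and 4. Among all genes 24.1% were higher and 17.9% lower against WT_new, and 11.6% and 8.03% against WT_old. SIFa, which encodes a peptide of a few central neurons, averaged 8.90 ± 0.10 in C17 against 10.25 ± 0.22 in WT_new (SD, n = 3 each), with every C17 array below every WT_new array (2.56-fold lower, adjusted p = 6.57e-06), and was lower against WT_old and UAS_control by 0.79 and 1.01. Crz (corazonin) was 1.89-fold lower but differed from UAS_control by -0.20 (adjusted p = 0.0854). Nplp1 was 1.65-fold and sNPF 1.44-fold higher. Insulin pathway genes were higher for 6 of 10 and lower for 0 (1 at an unadjusted limma p under 0.05), and against WT_old 2 were higher: InR, the insulin receptor gene, was 1.65-fold, the kinase gene Akt 1.70-fold and the brain insulin-like peptide gene Ilp5 1.73-fold higher than in WT_new. Against WT_old, InR and Akt differed by -0.05 and 0.01 and Ilp5 by 1.49, and against UAS_control Ilp5 differed by -0.21 (adjusted p = 0.26).

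Stress and signalling lists differed in direction. Of 16 heat shock and chaperone genes 7 were higher (43.8%, where 24.1% of all genes were higher) and 1 lower. Against WT_old 3 were lower and none of the 16 was higher. Among all genes 11.6% were higher and 8.03% lower against WT_old. Hsp68 read 10.14, 9.42 and 9.85 in C17 against 8.11, 7.95 and 7.89 in WT_new (3.54-fold higher, adjusted p = 0.000452), but was lower by 1.28 in C17 than in WT_old, and Hsp26 was 3.15-fold higher against WT_new and lower by 1.55 against WT_old. In WT_old minus WT_new these genes differed by 3.11 and 3.21. DnaJ-1 was 1.85-fold higher than in WT_new and differed from WT_old by 0.01. Of 9 genes of the Turandot family and the JAK-STAT pathway 5 were higher and 0 lower (1 at an unadjusted limma p under 0.05), with Stat92E at 1.54-fold. Against WT_old 1 of them was higher. Of 24 redox genes 3 were higher (12.5%) and 7 lower (29.2%, where 17.9% of all genes were lower). Against WT_old the direction was the other way, with 6 higher and 1 lower. That 1 was the mitochondrial peroxiredoxin gene Prx3 (-0.72), which was 1.72-fold lower than in WT_new. The 2 probe sets of Sod3 differed from WT_new by -0.45 and -2.16. Of 25 ecdysone pathway genes 9 were higher (36.0%) and 3 lower, and against WT_old 3 and 2. The ecdysone receptor gene EcR was 1.52-fold higher, and the 2 probe sets of ftz-f1 passed in opposite directions (-0.51 and 0.55). Among 28 glycolysis and sugar transport genes 7 were higher and 9 lower (32.1%), and against WT_old 7 were higher and 0 lower (1 at an unadjusted limma p under 0.05). Pgk (phosphoglycerate kinase) and the transporter gene rumpel were 1.55-fold and 1.70-fold lower than in WT_new, and differed from WT_old by 0.09 and -0.07.

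**Figure D4:**
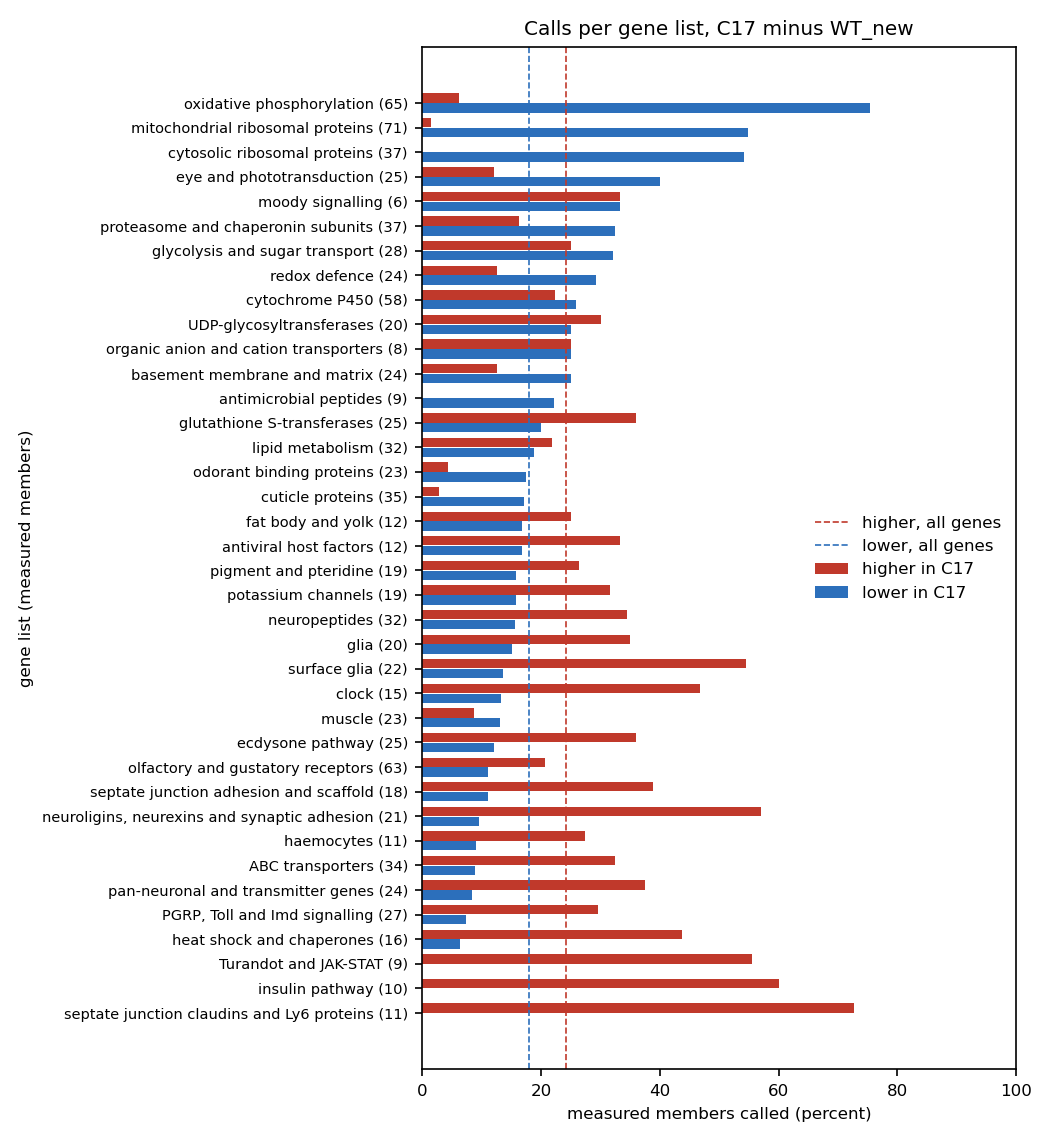
Percent of measured members called higher (red) and lower (blue) in C17 than in WT_new (horizontal axis) for 38 gene lists (vertical axis, measured members in brackets). Dashed lines are the 24.1% higher and 17.9% lower of all genes. Oxidative phosphorylation has 75.4% lower, and septate junction claudins and Ly6 proteins 72.7% higher.

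Several photoreceptor genes were lower in C17 than in WT_new, and much of the difference rested on WT_new array 3. Of 25 measured eye genes 10 were lower (where 17.9% of all genes were lower) and 3 higher in C17, and without that array 6 were lower, where 17.8% of all genes were lower, and 4 higher. The summed signal of the list on the C17 arrays, given above, was higher than on WT_new arrays 1 and 2. That linear sum is weighted to bright members such as rdgA, at 12.07 to 12.14 in C17 against 11.70 and 11.69 there. The median difference of the list without array 3 was -0.19. Against WT_old 3 were higher and 2 lower (median -0.04), where 11.6% and 8.03% of all genes were. Against UAS_control 2 were higher and 14 lower (median -0.66), where 23.2% and 20.4% of all genes were. The arrestin gene Arr2 read 7.38, 6.47 and 7.13 in C17 against 8.23, 9.09 and 12.36 in WT_new, a difference of -2.90 (adjusted p = 0.00431) and of -1.67 without array 3. The eye protein kinase C gene inaC (-2.60, and -1.31 without array 3) and the photoreceptor dehydrogenase gene Pdh (-2.86, and -1.31) behaved alike. The arrestin gene Arr1 (-2.85) and the channel gene trpl (-2.39) lost their call without array 3, at -1.34 (adjusted p = 0.0731) and -0.98 (adjusted p = 0.0672). The rhabdomere gene chp differed by -2.33 (adjusted p = 0.0558) and Cpn, which encodes the calcium-binding calphotin, by -1.72 (adjusted p = 0.138), and without array 3 these were -0.77 and -0.19. For retinin -3.63 became -1.81. Without WT_new array 1 the differences were larger, at -3.73 for Arr2, -3.52 for inaC, -3.78 for Pdh, -3.92 for Arr1, -3.20 for trpl and -4.92 for retinin, and chp (-3.48, adjusted p = 0.00502) and Cpn (-2.61, adjusted p = 0.0346) then passed. Arr1 missed the threshold also without C17 array 2 (adjusted p = 0.0828), and trpl without any 1 of the C17 arrays (adjusted p = 0.0618 to 0.0646). ninaB, a carotenoid oxygenase gene, fell evenly, at 9.13, 9.29 and 9.23 in C17 against 10.41, 10.24 and 10.14 in WT_new (2.07-fold lower), and its difference was -1.11 without array 3.

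**Figure D5:**
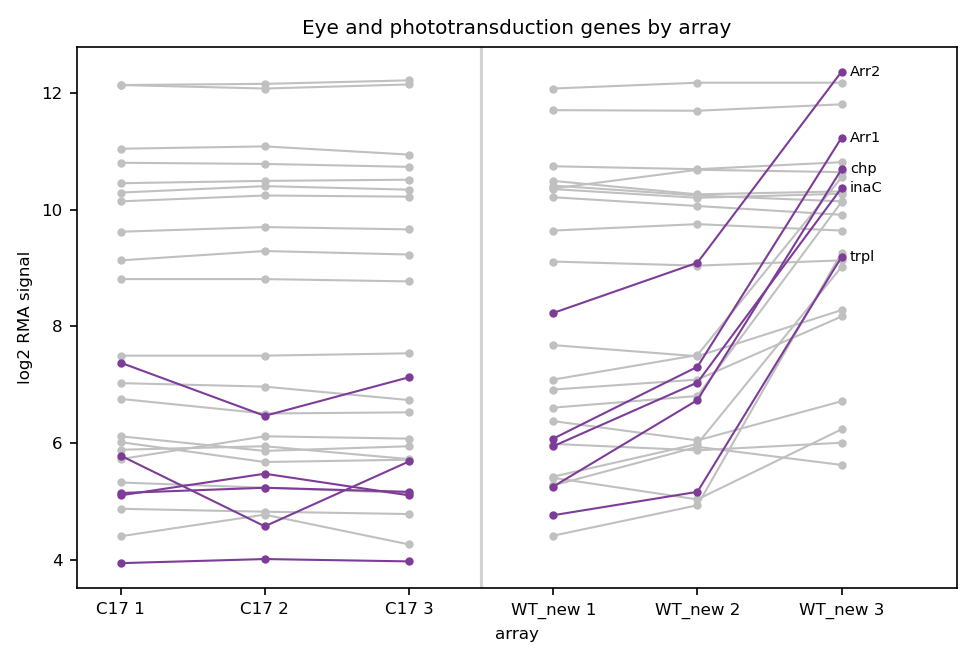
Log2 RMA signal (vertical axis) of 25 measured eye and phototransduction genes on each C17 and WT_new array (horizontal axis), with the points of 1 gene joined within a group to follow the gene. 5 genes (Arr1, Arr2, inaC, trpl and chp) are named and coloured, and their highest signals are on WT_new array 3.

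Markers of other tissues also varied between arrays. The summed signal of 12 fat body and yolk genes was 26922 to 30828 in C17, 30381 to 46584 in WT_new, 18578 to 20534 in WT_old and 29202 to 51783 in UAS_control. Much of this linear sum is 1 bright member, Obp44a, which differed little between groups. It averaged 14.3 in C17, 14.14 in WT_new, 14.02 in WT_old and 14.09 in UAS_control. The yolk protein genes Yp3 and Yp2 read 8.99 to 10.38 and 10.28 to 11.29 in C17, against 11.09 to 12.98 and 11.75 to 13.07 in WT_new. They differed by -2.25 (adjusted p = 0.0161) and -1.63 (adjusted p = 0.0299), and both missed the threshold without WT_new array 3 (adjusted p = 0.0749 and 0.117) and without C17 array 1 (adjusted p = 0.0707 and 0.104). Yp2 missed it also without C17 array 2 (adjusted p = 0.0745) and WT_new array 1 (adjusted p = 0.0593). Against WT_old both were higher in C17, by 3.05 and 3.37. The prophenoloxidase gene PPO2, a crystal cell marker, read 8.49, 8.62 and 8.58 in C17 against 6.42, 6.28 and 6.39 in WT_new (4.59-fold higher) with the same size against UAS_control (2.20) and similar against WT_old (2.08); of 11 haemocyte markers 3 were higher (27.3%) and 1 lower, near the share of all genes. The odorant receptor gene Or45b was 3.71-fold higher, while of 63 olfactory and gustatory receptors 13 were higher (20.6%) and 7 lower (11.1%), below the 24.1% and 17.9% of all genes. The part of these tissues in the results above was not tested.

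Some genes passed against WT_new and against neither other control group. CG4455 read 6.97, 7.04 and 7.06 in C17 against 5.94, 6.44 and 6.20 in WT_new (0.83, adjusted p = 9.24e-05), and the gene tank 7.85, 7.84 and 7.87 against 7.04, 7.04 and 7.28 (0.73, adjusted p = 0.0127). Against WT_old they differed by 0.01 (adjusted p = 0.958) and 0.02 (adjusted p = 0.964), and against UAS_control by 0.08 (adjusted p = 0.647) and 0.07 (adjusted p = 0.817). For CG14645 and CG34324 the differences from WT_old were both -0.03, and those from UAS_control -0.37 and -0.13.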

How the data were processed

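Deposited values were log2 probe set signals that the authors made by RMA, per the file headers; the submitters' processing notes name affy, RMA and limma without a version. RNA was amplified and biotin-labelled with NuGEN kits, per the labels' protocols. The 13290 probe sets of the series matrix were used as deposited. The authors' unfiltered table holds 5479 more, dimmer probe sets (median mean signal 4.04 against 7.91), and where both tables hold a probe set the values match within 0.005. What decided that omission was not stated.

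Of the probe sets, 10243 had 1 gene symbol, 310 several and 2737 none. For each of the 8938 genes the brightest probe set (by mean over 17 arrays) stood for the gene, and 840 genes had several. Neighbouring genes were taken from the RefSeq gene table, with no coordinates, since the files name no genome build.

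The limma 3.58.1 package (R 4.3.3) fitted 1 mean per group to the 17 arrays, so that every group contributes to the spread, with 12 residual degrees of freedom and 2.93 from the prior, and p-values were adjusted by Benjamini-Hochberg over all probe sets of a contrast, with a threshold of 0.05. The number of arrays limits the precision. Arrays with the same replicate number in C17 and WT_new did not deviate together (correlations -0.0233, 0.0603 and 0.0272), so the numbers were not used as pairs.

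The members and lists were chosen with earlier results of these data known. Named were moody and Mdr65; 12 genes each way with the largest change, from those called with and without WT_new array 3 whose arrays did not overlap; 8 each way with a mean signal of 9 or more; up to 6 members of each list by adjusted p; the 6 called genes whose changes against WT_old and UAS_control were opposite, or were small beside that against WT_new; the 8 genes that lost most without WT_new array 3; and up to 6 called neighbours of moody. There were 38 lists; 1 of amino acid transporters was dropped because it held genes of other roles. Alternatives changed the table (unfiltered, quantile-normalized again, centred by array median, without the dimmest 40%), the fit (trended robust prior, array weights, 6 arrays only, replicate block, wild types pooled), the limit (2-fold) or the arrays (each left out in turn). A fit with neither WT_new array 3 nor UAS_control array 2 was chosen after seeing the data.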

Additional observations from a re-analysis of the deposited data

Results flagged for a closer look

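Outside the series matrix, in the 5479 probe sets that only the unfiltered table holds, 844 (15.4%) passed for C17 minus WT_new when that table was fitted, 84 higher and 760 lower in C17. Of these, 3 higher and 6 lower ones changed by at least 2-fold. The signals there are dim.

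In the 5 WT_old arrays, the only group used here with more than 3 arrays, 1 array stood apart from the other 4 for 5 of 123 named genes tested, by a gap that chance alone gives in about 1 of 20 groups, so 5 is no more than chance would give. For sand the outlying array read 4.89 against 5.10 to 5.17, and for pasi2 9.23 against 8.80 to 8.91. For ND-B14.7 it read 10.44 against 10.60 to 10.66, for UQCR-11 8.51 against 8.76 to 8.84, and for elav 11.99 against 11.89 to 11.91.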

How the results depend on the processing

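The counts of higher and lower probe sets were 3349 and 2100. They fell to 1014 and 685 with WT_new and WT_old pooled as the reference, and to 260 and 188 with a 2-fold limit, by construction of that limit; the cause of the first was not tested. With 1 array left out they lay between 2769 and 3219 and between 1591 and 2054. The replicate block gave 2699 and 1575, and no pairing of arrays was found. Under the remaining settings the counts stayed within 1.5 times. The 858 calls held against all 3 control groups became 553 to 867 with 1 array left out, and moody lay between -7.67 and -7.51. Of 119 named genes that were called, 70 had the same call under every alternative, 49 lost it with the wild types pooled, and 14 lost it under at least 1 other alternative. Among named genes, Hsp68 (-0.12), Hsp26 (-0.35), Yp3 (1.06) and Yp2 (1.50) changed sign with the wild types pooled. Folds of dim genes are approximate, because their signals lie near the floor of the arrays.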

Other observations

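Several gene lists not described above had mixed differences between C17 and WT_new, where 24.1% of all genes were higher and 17.9% lower. Of 32 lipid metabolism genes 7 were higher and 6 lower. Against WT_old 15 were higher and 1 lower, where 11.6% and 8.03% of all genes were. Of 27 PGRP, Toll and Imd signalling genes 8 were higher and 2 lower, and of 12 antiviral host factor genes 4 were higher and 2 lower, with pst among the lower ones. Of 37 proteasome and chaperonin subunit genes 6 were higher and 12 lower, and of 19 potassium channel genes 6 were higher and 3 lower. When fitted without WT_new array 3, 3 lipid metabolism genes were lower and 3 potassium channel genes higher. Of 19 pigment and pteridine genes 5 were higher and 3 lower.

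Lists of tissues that surround the brain had fewer higher calls than all genes, and shares of lower calls near or below that of all genes, while their medians were lower. Of 35 cuticle protein genes 1 was higher (2.86%) and 6 lower (17.1%), of 23 odorant binding protein genes 1 was higher (4.35%) and 4 lower (17.4%), and of 23 muscle genes 2 were higher and 3 lower. The medians of these lists were -0.26, -0.24 and -0.47, where that of all genes was 0.02. Without WT_new array 3 they were -0.24, -0.23 and -0.36, and against WT_old 0.01, 0.05 and 0.17. All C17 arrays lay below all WT_new arrays for 12, 11 and 9 members, where 25.5% of all genes did. With WT_new array 3 left out, the lower members numbered 3 for cuticle proteins, 2 for odorant binding proteins and 1 for muscle, and no odorant binding protein gene was higher. The summed linear signal of the muscle genes was 3949 to 4619 on C17 arrays, 4142 to 5431 on WT_new arrays, 3632 to 4276 on WT_old arrays and 5621 to 21484 on UAS_control arrays. Of 9 antimicrobial peptide genes 2 were lower in C17, Drsl1 (log2 -0.40, adjusted p = 0.0121) and Drsl5 (log2 -2.84, adjusted p = 0.0255), named here after their values were seen. Leaving out WT_new array 3 made this count 1.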
